A study of Mus musculus with 4 samples.

Results

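A set of 9 genes for transcription factors of the meninges, the cranial mesenchyme and the neural crest was followed across astrocyte cultures of 4 brain regions: Foxc1, Foxc2, Foxd1, Twist1, Tbx18, Tbx15, Zic1, Tfap2b and Prrx1. They were chosen by name, as the genes that the array's annotation gives as the only gene of a probe set, a group of short probes read as 1 value. All 9 were found, with 14 probe sets, among 12393 genes with 20380 such probe sets. The cultures were grown from the subventricular zone (SVZ, a germinal layer), the ventral mesencephalon, the olfactory bulb and the hippocampus of CD-1 mice, an outbred stock, at postnatal day 3, and no culture was given an agent beyond its medium with 10% serum. Each region was measured on 1 array, of a culture from pooled littermates whose number the design text gives as 4 and then as 3. Adherent cells had been shaken at 200 rpm to enrich astroglia, and the labels call the cells primary astrocytes without a further purification.

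With 1 array per region no difference below has a replicate check, no test was made, and the number of arrays limits the precision. The signal is the deposited array intensity on a linear scale. Values at or below 122.1, the median of all signals, are near background and were raised to it for folds. A fold against such a value is therefore written "at least". As the only measure of error, the difference of 1 probe set between 2 arrays had an estimated SD of 0.22 (median-based, log2), or 1.17-fold. It was derived from the disagreement of 2 probe sets of the same gene, in 1977 genes. These genes were read above background in every culture, so the SD may be too small for weaker signals. This probe-set scatter covers how an RNA was read. The spread between cultures is unknown.

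The meninges are the membranes around the brain, and their fibroblasts come from neural crest over the forebrain and in part from mesoderm further back. Foxc1 and Foxc2 are forkhead factors that cranial mesenchyme and meninges need to form, and Foxd1 is a forkhead factor of stromal and perivascular precursors. Twist1, a basic helix-loop-helix factor, and Prrx1, a paired-type homeobox factor, act in craniofacial mesenchyme. Tbx18 and Tbx15 are T-box factors of mural cells and of skeletal and dermal mesenchyme. Zic1 is a zinc finger factor of the dorsal neural tube that is also made in meninges, and Tfap2b is an AP-2 factor of neural crest.

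Twist1 belongs to the family of factors that bind the E-box, CANNTG, so the start regions of the 9 genes, that of Twist1 included, were searched for it. RefSeq promoters (GRCm38.p6) were matched for 7 of the 9 genes, all but Foxc2 and Tbx15. Of the 7, 4 held CANNTG between 250 bases before and 50 bases after the start, against 72.3% of all 32851 promoters of 300 bases. CANNTG reads the same on both strands. The 250 bases before the start are shown for these 4, 5′ to 3′ on the gene's strand, with the match in capitals. They lie at chr13:98353995-98354244 on the plus strand (Foxd1), chr9:87731261-87731510 on the minus strand (Tbx18), chr9:91365769-91366018 on the minus strand (Zic1) and chr1:19211804-19212053 on the plus strand (Tfap2b).
Foxd1: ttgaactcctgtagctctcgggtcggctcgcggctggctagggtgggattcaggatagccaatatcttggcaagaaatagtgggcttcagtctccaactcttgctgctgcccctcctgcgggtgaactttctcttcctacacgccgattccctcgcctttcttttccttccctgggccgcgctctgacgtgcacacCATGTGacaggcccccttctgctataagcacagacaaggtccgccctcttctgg
Tbx18: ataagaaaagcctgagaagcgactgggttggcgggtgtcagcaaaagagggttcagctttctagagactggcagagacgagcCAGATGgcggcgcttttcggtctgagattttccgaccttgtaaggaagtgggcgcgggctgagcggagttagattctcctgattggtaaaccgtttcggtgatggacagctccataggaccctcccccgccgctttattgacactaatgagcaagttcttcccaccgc
Zic1: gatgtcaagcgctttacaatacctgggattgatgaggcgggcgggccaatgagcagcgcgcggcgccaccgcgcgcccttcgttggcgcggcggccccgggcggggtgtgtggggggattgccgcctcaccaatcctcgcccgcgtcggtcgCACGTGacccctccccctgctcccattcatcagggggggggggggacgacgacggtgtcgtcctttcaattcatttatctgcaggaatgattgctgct
Tfap2b: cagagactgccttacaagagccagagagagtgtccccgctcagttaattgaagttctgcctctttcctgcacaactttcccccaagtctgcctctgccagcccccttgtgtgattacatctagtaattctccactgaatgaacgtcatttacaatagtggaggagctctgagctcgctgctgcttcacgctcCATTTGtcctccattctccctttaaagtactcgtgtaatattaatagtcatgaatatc
The match began 54 bases before the start in Foxd1, 168 in Tbx18, 98 in Zic1 and 58 in Tfap2b. A forkhead motif, GTAAACA on either strand, and a T-box motif, AGGTGTGA on either strand, had 0 matches among the 7, against 3.65% and 1.28% of all promoters. Neither of these motifs contains CANNTG. A match describes these letters only.

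Most of the 9 genes had their highest signal in the bulb, the next in the mesencephalon, and low signals in the hippocampus and the SVZ. The bulb was highest for 8 of 9 genes, all but Twist1, against 28.7% of the 7987 genes that exceeded the floor on 1 array or more. For 7 of the 9 the mesencephalon came second, an order held by 10.3% of all genes. All 9 genes were above the floor in the bulb, 8 in the mesencephalon, 7 in the hippocampus and 3 in the SVZ. Only Foxc1 and Prrx1 were above it in all 4 regions, and Tfap2b passed through the bulb alone.

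**Figure D1:**
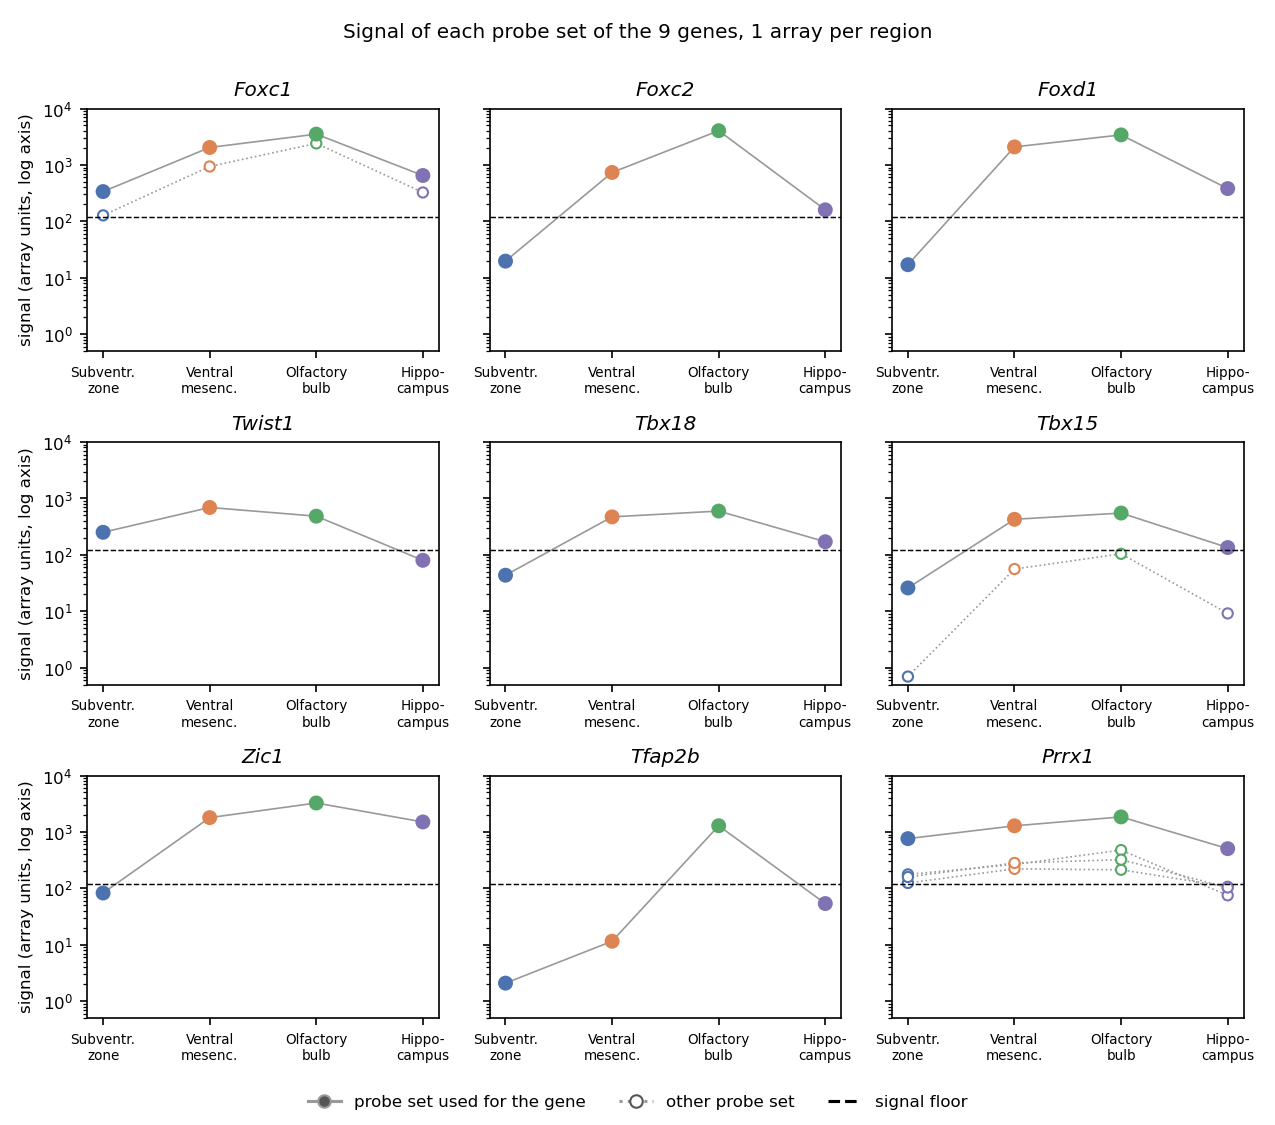
Signal of every probe set of the 9 genes (array units, log axis) in the 4 cultures, 1 array each; filled points are the probe set used for the gene, open points its other probe sets, lines join the points of a probe set and the dashed line is the floor of 122.1. In 8 of 9 panels the highest filled point is the olfactory bulb, and in the Twist1 panel it is the ventral mesencephalon.

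Among the forkhead genes, Foxc1 had signals of 338 in the SVZ, 2041 in the mesencephalon, 3515 in the bulb and 650.6 in the hippocampus. The bulb was thus 10.4-fold above the SVZ, 5.40-fold above the hippocampus and 1.72-fold above the mesencephalon. A second probe set of Foxc1 read 128, 939, 2409 and 326 in the same order of regions, with a wider span of 18.8-fold. Both probe sets gave 1 order of regions, and each step of it was wider than 2 SD of the probe-set scatter (0.45 on the log2 scale).

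Foxc2, which lies in the same forkhead subfamily as Foxc1, was more uneven. It read 19.8 in the SVZ, 736 in the mesencephalon, 4041 in the bulb and 160 in the hippocampus. The bulb was 5.49-fold above the mesencephalon, 25.2-fold above the hippocampus and at least 33.1-fold above the SVZ. The step from mesencephalon to bulb was 2.46 on the log2 scale for Foxc2 and 0.78 for Foxc1, so the paralogs differed more in this step than in which cultures were high.

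Foxd1 read 17.1 in the SVZ, 2088 in the mesencephalon, 3407 in the bulb and 382 in the hippocampus. The bulb was 1.63-fold above the mesencephalon and 8.93-fold above the hippocampus. In the SVZ Foxd1 was at or near background, at least 3.13-fold below the hippocampus and at least 27.9-fold below the bulb.

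The T-box genes had the most similar profiles of all pairs among the 9. Tbx18 read 43.7, 472, 598 and 171 in the SVZ, mesencephalon, bulb and hippocampus. Tbx15 read 26, 427, 551 and 135 in that order. With each gene centred on its own mean, the root mean square difference between them over the 4 arrays was 0.12 (log2), and the next pair, Foxc1 and Tbx18, differed by 0.39. For both genes the bulb was above the mesencephalon by less than 2 SD of the probe-set scatter (log2 differences of 0.34 and 0.37), so these neighbours are not told apart. The hippocampus was 3.49-fold (Tbx18) and 4.08-fold (Tbx15) below the bulb. The other probe set of Tbx15 read 0.70, 56.2, 105 and 9.20 and was below the floor on all 4 arrays, so the gene rests on 1 probe set.

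Zic1 differed from the forkhead and T-box genes in the hippocampus. It read 82.9 in the SVZ, 1793 in the mesencephalon, 3259 in the bulb and 1503 in the hippocampus. The hippocampus was 2.17-fold below the bulb but only 1.19-fold below the mesencephalon, a step within 2 SD of the scatter that turned to 1.32-fold above it with the arrays scaled to their hybridisation controls. The SVZ lay at least 12.3-fold below each other culture. The promoter of Zic1 shown above is the only 1 of the 4 printed whose E-box reads CACGTG.

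Tfap2b was the only gene of the 9 above the floor in a single culture. It read 1289 in the bulb, 53.9 in the hippocampus, 11.6 in the mesencephalon and 2.10 in the SVZ. The bulb was at least 10.6-fold above each other region, and the order of the 3 low values has no meaning below the floor.

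Twist1 and Prrx1, both of craniofacial mesenchyme, were the genes whose lowest signal was in the hippocampus. Twist1 read 252, 692, 485 and 80.2 in the SVZ, mesencephalon, bulb and hippocampus. Its highest value was in the mesencephalon, 1.43-fold above the bulb and 2.75-fold above the SVZ, and it was below the floor in the hippocampus. Prrx1 read 762, 1285, 1847 and 506 in the same order, a span of 3.65-fold. For both genes the SVZ was above the hippocampus, by at least 2.06-fold for Twist1 and 1.51-fold for Prrx1, the reverse of the forkhead genes and Zic1. For Prrx1 this turned to 1.14-fold below it with scaling to the hybridisation controls. The order of regions turned for no other pair and gene of the 9 under that scaling, quantile normalization or upper quartile scaling.

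Prrx1 had 3 further probe sets, all with the hippocampus lowest and below the floor there, at 75.5, 107 and 104. In the bulb they read 477, 214 and 323, and in the mesencephalon 266, 222 and 283. Of these, 2 had the bulb highest and the other put the mesencephalon 1.04-fold above it. In the SVZ they read 177, 125 and 159. Over all genes, 13 of the 14 probe sets were above the floor on at least 1 array, and 11 of the 13 had the bulb highest.

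A gene was called in a region when it was at least 2-fold above the highest or below the lowest of the other 3. In the bulb 2 of the 9 were called higher, Foxc2 and Tfap2b, against 1.87% of all genes. In the SVZ 2 were called lower, Foxd1 and Zic1, against 1.01%. In the hippocampus Twist1 was called lower, against 0.488%, and this call ended under a floor set at percentile 70, under a 3-fold rule and under scaling to the hybridisation controls. No gene of the 9 was called in the mesencephalon, where 1.57% of all genes were called higher and 0.563% lower. Likewise 0 of the 9 were called lower in the bulb (1.55% of all genes), higher in the hippocampus (2.49%) or higher in the SVZ (1.28%). These counts depend on which cultures are set against each other, and with fewer cultures to exceed the share of all genes called rises too. Without the mesencephalon array 8 genes were called higher in the bulb, against 3.79% of all genes, and without the hippocampus array 6 were called lower in the SVZ, against 2.5%. Over all regions and directions there were 5 calls among the 9 genes, and 9, 11, 9 and 8 without the SVZ, mesencephalon, bulb and hippocampus array. Per 100 genes, all genes had 10.8 such calls, and 17.8, 17.6, 15.7 and 16.4 with those arrays left out. With a floor at percentile 30, 5 genes were called lower in the SVZ, against 1.98%, and with it at percentile 70, 1 was, against 0.583%.

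Pairs of cultures show where the differences lie. The bulb was at least 2-fold above the hippocampus for 9 of 9 genes, against 5.23% of all genes, and above the SVZ for 8 of 9, against 8.39%. The exception was Twist1, at 1.93-fold. The mesencephalon was at least 2-fold above the SVZ for 7 genes, all but Tfap2b and Prrx1, against 4.97%. It was so above the hippocampus for 7 genes, all but Zic1 and Tfap2b, against 6.77%. The median differences of the 9 genes in these pairs were 2.03, 3.38, at least 1.95 and 1.65 on the log2 scale, against medians over all genes of 0.00, 0.00, 0.00 and -0.04. The 1.95 is the value of Tbx18, whose SVZ signal (43.7) was raised to the floor. In the reverse direction 0 of the 9 were 2-fold apart in these pairs, where 8.69%, 9%, 5.45% and 9.43% of all genes were. Pairs that share a culture are not independent of each other.

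**Figure D2:**
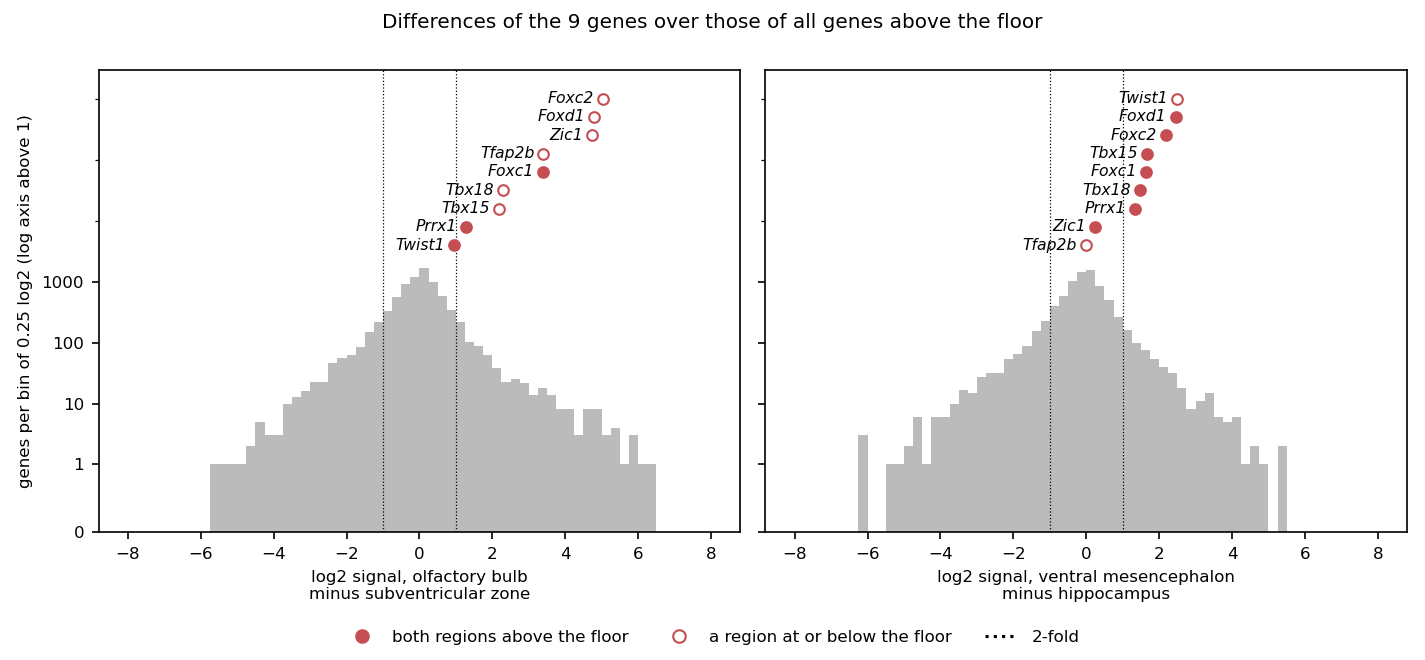
Log2 signal difference of the olfactory bulb from the subventricular zone (left) and of the ventral mesencephalon from the hippocampus (right); grey bars count the 7987 genes above the floor in bins of 0.25 (log axis above 1), points are the 9 genes at arbitrary heights, open where a region is at or below the floor, and dotted lines mark 2-fold. On the left 8 of 9 genes lie right of the 2-fold line and on the right 7 of 9.

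With signals raised to the floor, the closest cultures were 2-fold or more apart for few of the genes. The bulb was at least 2-fold above the mesencephalon for Foxc2 and Tfap2b only, against 5.53% of all genes, with a median difference of 0.71 over the 9, and 0 of the 9 were 2-fold apart the other way (6.46%). The hippocampus was at least 2-fold above the SVZ for Foxd1 and Zic1, against 6.54% of all genes, and at least 2-fold below it for Twist1, against 4.95%. Only 3 of the 9 were above the floor in the SVZ, so the count higher in the hippocampus is a minimum. As deposited, Foxc2, Tbx18 and Tbx15 read 160, 171 and 135 in the hippocampus and 19.8, 43.7 and 26 in the SVZ. Grouping the cultures into these closest pairs was done after the values were seen. The mesencephalon and the bulb were both above the other cultures for 8 of 9 genes, all but Tfap2b, against 16.7% of all genes, and both at least 2-fold above them for 5, Foxc1, Foxc2, Foxd1, Tbx18 and Tbx15, against 1.2%.

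**Figure D3:**
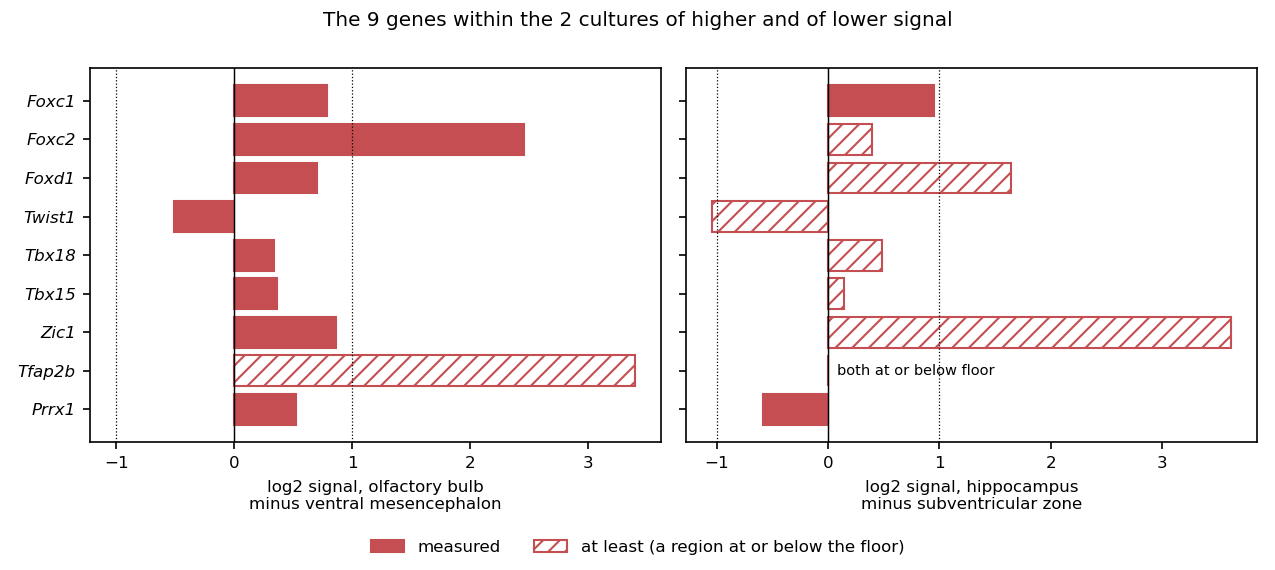
Log2 signal difference of the olfactory bulb from the ventral mesencephalon (left) and of the hippocampus from the subventricular zone (right) for the 9 genes, 1 array per region; hatched bars are lower bounds in size because a region is at or below the floor, and dotted lines mark 2-fold. Foxc2 and Tfap2b pass 2-fold on the left, and on the right Foxd1 and Zic1 pass it upwards and Twist1 downwards.

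Taking each region against the mean of the other 3, the 9 genes had a median difference of 2.20 (log2) in the bulb, with a range from 0.81 for Twist1 to 4.05 for Foxc2. In the mesencephalon the median was 1.03, from -1.13 for Tfap2b to 1.95 for Foxd1. It was -1.18 in the hippocampus, from -2.15 for Foxc2 to 0.75 for Zic1, and -1.58 in the SVZ, from -4.08 for Zic1 to -0.45 for Twist1. Over all 7987 genes the medians lay between -0.06 and 0.01. The floor moved the lower medians in opposite ways: with log2 of signal + 16 and no floor they were -2.91 in the SVZ and -0.64 in the hippocampus. The Zic1 difference in the mesencephalon was 1.09 and turned to -0.30 without the SVZ array.

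The relatives of the 9 genes, taken from lists of the same factor families, had these patterns in part. Of 15 further forkhead genes on the array 9 were above the floor, with medians between -0.43 and 0.28 in the 4 regions. The midbrain factor Foxa1 (483) and the mesenchymal factor Foxf2 were called higher in the mesencephalon, at least 3.96-fold and 2.46-fold above the other regions. Foxj1, the factor of motile cilia, was called lower in the bulb (74.4) and higher in the hippocampus (1910). Of 11 further T-box genes none was above the floor on any array, and neither was any of 7 further Twist-type genes, including Twist2 (at most 114). The AP-2 gene Tfap2a, a neural crest factor as Tfap2b is, read 484 in the bulb and at most 67.6 elsewhere. Of the 5 Zic and Gli-type genes above the floor, Zic2 (551) and Zic5 (827) were called higher in the bulb. Zic2 read 173 in the mesencephalon, 108 in the hippocampus and 9.30 in the SVZ. Prrx2, the relative of Prrx1, read 248, 1300.3, 825 and 234 in the SVZ, mesencephalon, bulb and hippocampus, and so was highest in the mesencephalon, chosen here after its values were seen. Pax6, a factor of dorsal forebrain progenitors, was called higher in the hippocampus (547).

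The medians of other mesenchymal transcription factors were shifted the same way by smaller amounts. Of 27 such genes on the array 17 were above the floor, with medians of -0.59 in the SVZ, 0.33 in the mesencephalon, 0.54 in the bulb and -0.56 in the hippocampus. With scaling to the hybridisation controls the mesencephalon had 0.07 and the hippocampus -0.08. In the bulb 3 were called higher, against 1.87% of all genes: Six2 (1330, 7.36-fold), the orphan nuclear receptor Nr2f2 (3167, 3.31-fold) and Osr1 (1931, 2.69-fold). Of these Nr2f2 was also the 1 gene of the list called lower in the SVZ (265), against 1.01% of all genes. The mesencephalon and the bulb were both above the other cultures for 10 of the 17, against 16.7% of all genes. Among those with another order, Msx2 read 405, 317, 98.8 and 97.3 in the SVZ, mesencephalon, bulb and hippocampus. Msx1 (267) and Nr2f1 (2820) were highest in the hippocampus, and Zeb1 (1340) and Id3 (6254) in the SVZ. Of 7 genes of the other neural crest list above the floor, which includes the receptor Erbb3, Sox10 was called higher in the bulb (355, with at most 78.2 elsewhere) and Ets1 lower in the hippocampus (132). The medians of this list were -0.09, 0.01, -0.09 and -0.23 in the SVZ, mesencephalon, bulb and hippocampus, with the mesencephalon turning to -0.28 under scaling to the hybridisation controls. Sox9, a factor of neural crest and glia, read 1208, 605, 356 and 1623 in that order, and Myc 1069, 1745, 381 and 382. Sox9 was lowest in the bulb and Myc about equally low in the bulb and the hippocampus, and both were picked here after their values were seen.

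Genes known as markers of meningeal fibroblasts and their matrix differed between the cultures in a similar order. Of 28 fibroblast and matrix markers above the floor 8 were called higher in the bulb (1.87% of all genes). In the SVZ 9 were called lower (1.01%) and 1 higher (1.28%), Islr (5941). Slc13a3, not called, was also highest in the SVZ (494). In addition 1 each was called higher in the mesencephalon (Lum) and the hippocampus (Pdgfra). Below the floor on all 4 arrays were Fap, Slc6a13, Slc22a6, Col13a1, Dpt and Slc47a1, at most 48.4, 35.1, 17.4, 13.2, 11.8 and 10.7. Their medians were -1.61 in the SVZ, 0.73 in the mesencephalon, 1.32 in the bulb and -0.31 in the hippocampus, the last turning to 0.08 with scaling to the hybridisation controls. The collagen gene Col3a1 read 176, 9394, 10549 and 5271 in those regions and decorin, Dcn, 63.9, 6320, 7039 and 2319. The connexin genes Gjb2 (5291) and Gjb6 (1313) were called higher in the bulb, by 12.8-fold and 8.89-fold. Gjb6 is also on the astrocyte list and Pdgfra on the oligodendrocyte list, so their calls are counted in both. Summed over the 34 markers on the array, the signal was 21913 in the SVZ, 66780 in the mesencephalon, 94522 in the bulb and 36417 in the hippocampus, the same order as Foxc1 and Foxd1. In a bulk culture, fewer cells of a type and less RNA per cell cannot be told apart.

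Secreted signals and retinoic acid genes of the meninges were divided. Of 14 above the floor 3 were called higher in the bulb, against 1.87% of all genes. In the SVZ 3 were called lower (1.01%) and 1 higher (1.28%). In addition 1 was called lower in the mesencephalon (0.563%) and 1 higher in the hippocampus (2.49%). The growth factor Igf2 read 24.6 in the SVZ, 928 in the mesencephalon, 10268 in the bulb and 3441 in the hippocampus, and Wnt6 was called higher in the bulb (630, at least 5.16-fold). Aldh1a2, the retinoic acid-synthesising enzyme of the meninges, read 55, 847, 618 and 1206 in the 4 regions in the order used for Igf2, so it was low in the SVZ like the factors but highest in the hippocampus, where most of the 9 were low. Bmp6 was called higher in the hippocampus (1272). Aldh1a1, another retinaldehyde dehydrogenase, read 2300.4, 270, 1051 and 676 in that order, highest in the SVZ and lowest in the mesencephalon, unlike the 9 genes.

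Markers of other cell types differed between the cultures, and their part in the results on the 9 genes was not tested. Some lists share genes and are not separate from each other. Sox10, for example, is on the other neural crest, the ensheathing and Schwann cell and the oligodendrocyte lists. The 22 astrocyte markers, of which 21 were above the floor, summed to 38086 in the SVZ, 20245 in the mesencephalon, 29829 in the bulb and 55233 in the hippocampus, with Gfap at 3112, 1007, 3800.2 and 10027. Of the 21, 1 was called higher in the SVZ (1.28% of all genes) and 1 lower (1.01%), Gja1, which was highest in the bulb (9010). In the mesencephalon the deiodinase gene Dio2 was called higher (773, 4.24-fold, 1.57% of all genes) and 3 lower (0.563%). In the bulb Gjb6 (1313, 8.89-fold) and Slc4a4 (1076, 2.65-fold) were called higher (1.87%). There 2 were called lower (1.55%), among them the folate enzyme gene Aldh1l1 (311, 5.50-fold). In the hippocampus 3 were called higher (2.49%). The 16 microglia and macrophage markers summed to 1423, 1123, 36382 and 42287, in the same order, so they were high in the bulb and the hippocampus and low in the SVZ and the mesencephalon. Among them Cx3cr1 (739) and Cd14 (4436) were called higher in the hippocampus. The 15 pericyte and smooth muscle markers, which include Tbx18, summed to between 19286 and 21401, most of it from the smooth muscle genes Acta2 (9301 to 11576) and Tagln (5224 to 6331). Their defining genes Kcnj8 and Abcc9 were at most 19.1 and 4.30 on any array, while Rgs5 read 46.8, 163, 655 and 74.3 in that order of regions. The other markers of this list were uneven, with a median difference of 0.61 in the bulb. Vtn was called higher in the bulb (1110.2, at least 9.09-fold) and calponin, Cnn1, lower there (132, 5.91-fold), and the receptor gene Pdgfrb read 766, 2078, 2438 and 1254. Olfactory ensheathing and Schwann cell markers, 11 above the floor, had 3 called higher in the bulb (1.87% of all genes): Ngfr (662), L1cam (465) and Sox10 (355). Of these L1cam and Sox10 were above the floor in the bulb alone. Called lower there was 1 (1.55%), the lipid-binding protein gene Fabp7 (1249.7, against 14077 in the SVZ). In this list 2 were also called higher in the SVZ (1.28%) and 1 higher in the mesencephalon (1.57%), Egr2 (1026). In the hippocampus 1 was called higher (2.49%) and 1 lower (0.488%). The transthyretin gene Ttr of the choroid plexus read 8960 in the hippocampus and at most 88.1 elsewhere, and Folr1 (550.3) and Rsph1 (1156) of that list were called higher there too. Of 11 endothelial markers 2 were above the floor, Cdh5, highest in the mesencephalon (255), and Slco1a4, lowest there (90.7). Of 14 neuronal markers 4 were above it, among them Stmn2 (3465) and Gad1 (671), called higher in the SVZ, and Reln (542), called higher in the bulb. Of 9 oligodendrocyte markers 6 were, with Olig1 called lower in the bulb (171) and Cnp higher in the hippocampus (3286).

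**Figure D4:**
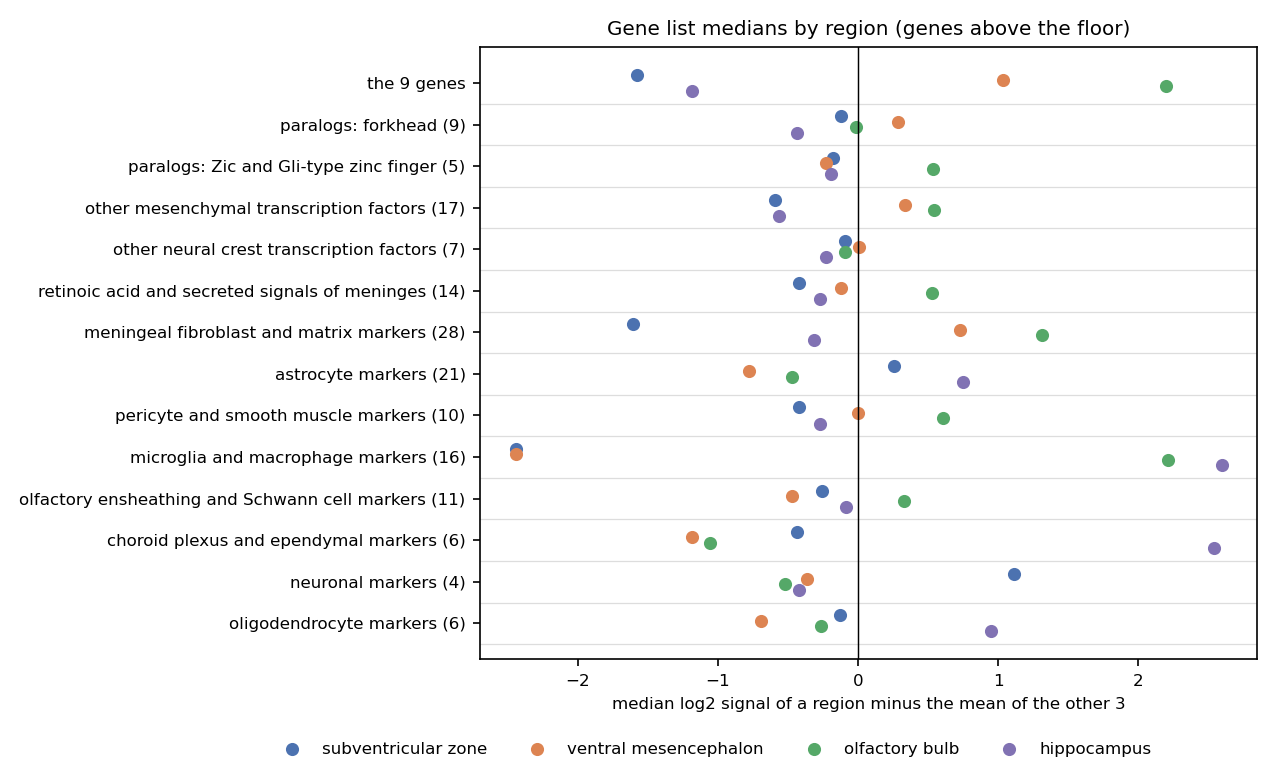
Median log2 signal of a region minus the mean of the other 3, for the 9 genes and for each list with at least 4 genes above the floor (their number in brackets); 1 point per region, 1 array each. The 9 genes and the fibroblast and matrix markers have the olfactory bulb and the ventral mesencephalon on the right and the subventricular zone at -1.58 and -1.61.

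Across all genes above the floor, those with the smallest root mean square difference from each of the 9 over the 4 arrays, each gene centred on its own mean, were named as the most similar. The difference was taken after signals were raised to the floor, so a match can rest on raised values. For Foxc1 the most similar were the protease gene Ctsk (0.11, log2), Phldb2 (0.14) and Grb10 (0.18). In the SVZ Ctsk read 23.5, raised to 122.1, where Foxc1 was above the floor at 338. For Tbx18 they were Nfatc4 (0.07), Tbx15 (0.12) and Wls (0.15), and for Tbx15 the forkhead gene Foxp1 (0.10), Tbx18 and Nfatc4 (0.14). Nfatc4, a calcium-responsive factor, read 95.9, 490.2, 541 and 167 in the SVZ, mesencephalon, bulb and hippocampus.

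Foxd1 was nearest to the natriuretic peptide receptor gene Npr3 (0.25), the prostacyclin synthase Ptgis (0.31) and Pcolce (0.41), a helper of collagen processing. Foxc2 had no gene closer than 0.35, the Wnt enhancer Rspo2, followed by Igfbp6 (0.46) and Mmp16 (0.48). Rspo2 read 3409 in the bulb, 379 in the mesencephalon, 111 in the hippocampus and 11.3 in the SVZ. Zic1 was nearest to Ifitm1 (0.14), Rnase4 (0.23) and the gelatinase Mmp2 (0.28). Tfap2b was nearest to Myh1 (0.08), Vtn (0.09) and Gjb6 (0.12). Twist1 was nearest to the syndecan Sdc1 (0.23), Cds2 (0.28) and Arhgef5 (0.29), and Prrx1 to Gstt3 (0.10), Zfhx3 (0.13) and Ackr3 (0.13). In the SVZ Tbx15 (26) and Zic1 (82.9) were raised to the floor, while their nearest genes Foxp1 (512) and Ifitm1 (282) were above it. Signals as deposited would set such pairs further apart there. With 4 arrays, of which several are at the floor, likeness of this kind describes these cultures only.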

How the data were processed

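RNA of 4 astrocyte cultures (2 ug each) was hybridised to 1 Affymetrix mouse array per culture. The deposited values are linear signal intensities of 22690 probe sets, made by the authors with GCOS 1.4, per the submitters' processing notes. The algorithm and its settings are not stated there, and no detection calls were used here. The arrays' 2% trimmed means were all 400.1 to 400.2, so the intensities were used without further scaling.

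Computed here (Python 3.11.15, numpy 2.4.6, pandas 2.3.3): probe sets were named by the platform annotation, and only those with 1 symbol were used; 64 control probe sets were left out. Signals were raised to a floor, the median of all signals (122.1), and log2 values taken. A gene was represented by its probe set of highest mean log2 signal. A region called a gene at 2-fold or more beyond all other regions. The calling rule was run on simulated arrays as a check of the code only, with large changes in genes well above the floor. That run cannot show how reliable calls near 2-fold or near the floor are. No test was possible with 1 array per region.

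The 9 genes, the lists and the rules were chosen with earlier results of these data known. Named beside the 9 are up to 4 called genes of each list with the widest gap, the 3 genes most similar to each, and a few chosen after their values were seen. Alternatives covered the floor, probe sets, scaling, the fold and leaving out each array. Promoter sequences came from RefSeq (GRCm38.p6).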

Additional observations from a re-analysis of the deposited data

How the results depend on the processing

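All values rest on 1 array per region, so no setting adds a check between cultures. No paired analysis was possible because each region has 1 sample, all with the same replicate number, and no test was made. The median difference from the other 3 regions was -3.06 in the SVZ, 1.52 in the mesencephalon and -0.80 in the hippocampus with the floor at percentile 30, and -0.61, 0.52 and -0.61 with it at percentile 70, where the bulb had 1.72. With log2 of signal + 16 and no floor these were -2.91, 1.35 and -0.64. With the lowest probe set of a gene the SVZ had -2.13 and the bulb 2.53, and with scaling to the 18 hybridisation controls the mesencephalon had 0.62 and the hippocampus -0.73. That scaling shifted the median of all genes by -0.32, -0.19, 0.18 and 0.46 (log2) in the SVZ, mesencephalon, bulb and hippocampus. These controls were a median of 1.69-fold lower in the hippocampus than in the SVZ array.

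With 1 array left out, the medians ran from -2.12 to -1.22 in the SVZ, from 0.43 to 1.98 in the mesencephalon, from 1.20 to 2.91 in the bulb and from -1.84 to -0.49 in the hippocampus. The calls numbered 8 with the floor at percentile 30 and also with no floor, against 16.2 and 12.6 per 100 of all genes. Of the 8, 5 were lower in the SVZ in each, against 1.98% and 1.67% of all genes. They numbered 3 with the floor at percentile 70, against 7.85 per 100 of all genes, with 1 lower in the SVZ, against 0.583%. Under that floor 3 genes had the mesencephalon and bulb both 2-fold above the other cultures, with no share of all genes computed. At 1.5-fold the calls numbered 10, against 29.3 per 100 of all genes, with 5 higher in the bulb, against 4.72%. With scaling to the hybridisation controls 4 were higher in the bulb, against 2.16%. Without 1 array the calls numbered 8 to 11, against 15.7 to 17.8 per 100 of all genes. Of these 2 to 8 were higher in the bulb, against 2.04% to 3.96% of all genes. In the SVZ 2 to 6 were lower, against 1.18% to 3.12%. The mesencephalon difference of Zic1 ran from -0.30 without the SVZ array to 2.07 without the bulb array. Of 288 single-gene differences under 8 processing alternatives, 1 had another sign than reported, as had 4 of 108 with an array left out. Values that fell to 0, as for Tbx15 with its lowest probe set, were not counted as such. Many changed in size. By 0.19 (log2), 1 SD of the probe-set scatter for such differences, or more, 110 of the 288 and 89 of the 108 moved without being classed as reversed. The higher or lower side of all 4 medians was the same under every alternative run. The cause of these shifts was not tested.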
